A study of Homo sapiens with 6 samples.

Results

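The genes described here are 9 members of the basic leucine zipper (bZIP) class of transcription factors: ATF3, JDP2, BATF3, ATF2, ATF7, the small MAF genes MAFF, MAFG and MAFK, and BACH1. They were taken by gene name from the deposited count and FPKM tables, and all 9 names were found, each once, among 58735 gene rows. All 9 also carry the bZIP entry in the tables' own column of factor families, which marks 48 rows in all. Messenger RNA was measured in MDA-MB-231, an established human triple-negative breast cancer cell line, unmodified (labelled WT) in every sample. Every culture had been stained with PKH26, a membrane dye that is diluted at each division, and grown for 12 days before sorting. Slow-cycling cells (SCC) were the brightest 1% for the dye, and rapid-cycling cells (RCC) were cells of moderate brightness according to the protocol text, or of low brightness according to the sample characteristics. Each group had 3 libraries, described as biological replicates.

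A bZIP factor binds DNA as a dimer, through a basic region that contacts the DNA and a leucine zipper that pairs it with a partner. ATF3, JDP2, BATF3, ATF2 and ATF7 can pair with JUN proteins, and they recognise AP-1 sites or the related cyclic AMP response element. Small MAF proteins lack a transactivation domain of their own. They act as partners of the cap'n'collar (CNC) factors, which include NFE2L1, NFE2L2 (also called NRF2) and the repressor BACH1, on antioxidant response elements.

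Libraries held 17655855 to 27831824 counts, and all 9 genes were among the 15881 that passed the filter on low counts. SCC replicate 1 stood apart from the other libraries by GC content. In the tenth of tested genes with the highest GC content, its median deviation from the mean of the libraries was 0.41 on the log2 scale, against -0.16 to 0.02 in the other 5. Several fold changes are therefore given also with a correction for GC content and without that library, whereas sums and ratios of FPKM carry no such correction. By level, VIM, CD44 and EGFR, expected in this line, lay between 336 and 835 CPM (counts scaled to a common library size) in every library. Of the genes expected to be low, ESR1, PGR, CDH1 and KRT5 stayed under 1 CPM. EPCAM, also expected to be low, lay between 3.61 and 5.73 CPM, and ERBB2 between 71.3 and 106 CPM. The luminal keratin genes KRT8 and KRT18 lay between 326 and 425 CPM and between 185 and 223 CPM. The summed level of 9 genes of leukocytes, endothelium, red cells and liver was 3.99 to 5.86 CPM in SCC and 3.26 to 4.53 in RCC, with ALB at 0 in every library. PTPRC, the pan-leukocyte gene CD45 among them, lay between 0.256 and 1.97 CPM in SCC and between 0.143 and 0.559 in RCC; its part in any result was not tested.

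Promoter sequence was available from RefSeq (build GRCh38.p14) for 6 of the 9 genes, as 14 windows of 250 bases before a transcript start. ATF3 and MAFF are shown because they were the 2 genes that rose in SCC, and BACH1 because it holds the one AP-1 type match. Capitals mark matches to TGANTCA (the AP-1 site), TGACGTCA (the cyclic AMP response element) or TGACNNNGC (the core of the antioxidant response element), searched on both strands. Each stretch is on the plus strand, 5′ to 3′. The first line of ATF3 and of MAFF ends where the first protein-coding transcript in GENCODE begins, and the other lines are single matches with 11 bases on either side.
ATF3, chr1:212565157-212565333: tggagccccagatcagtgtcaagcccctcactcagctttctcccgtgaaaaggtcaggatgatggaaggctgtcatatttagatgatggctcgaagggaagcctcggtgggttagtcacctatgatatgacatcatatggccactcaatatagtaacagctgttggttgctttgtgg
MAFF, chr22:38201744-38201881: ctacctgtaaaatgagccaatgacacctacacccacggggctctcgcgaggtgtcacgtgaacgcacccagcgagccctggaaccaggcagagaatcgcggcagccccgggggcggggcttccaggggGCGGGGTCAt
MAFF, chr22:38201929-38201958: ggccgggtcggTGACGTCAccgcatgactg
BACH1, chr21:29298863-29298891: cgcggaaggagTGAGTCAcctgaccgctg

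MAFF held TGACGTCA 54 bases before its RefSeq start at 38201994, a position that lies inside an exon of transcripts that begin further upstream. Across all promoter windows of the same length, 1.65% held TGACGTCA, 6.57% held TGANTCA and 10.9% held TGACNNNGC. MAFF also held 1 match to TGACNNNGC, on the minus strand, and BACH1 held 1 match to TGANTCA, 48 bases before its RefSeq start. All 250 bases of this MAFF window lie in annotated exons of MAFF. In the BACH1 window with the match, 51 bases lie in exons of BACH1. The windows of ATF3, ATF7, JDP2 and MAFG held none of the 3 motifs. The windows of ATF3 belong to only some of its annotated starts, and a match is a match of letters, not evidence that a factor was bound.

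In SCC 2 of the 9 genes were higher, ATF3 about 7-fold and MAFF about 2-fold, and none was lower. Calls rest on an adjusted p under 0.05 (edgeR, quasi-likelihood, Benjamini-Hochberg) over all 15881 genes tested. The same test called 1.69% of all tested genes higher and 0.378% lower. With DESeq2 the same 2 were higher, against 2.93% of all genes, and 0 lower, against 0.997%. At an unadjusted p under 0.05, 4 of the 9 were higher (ATF3, MAFF, JDP2 and MAFG) and 0 were lower, against 11.4% and 8.27% of all genes. The 95% intervals below are for each gene alone, so an interval can exclude 0 where the adjusted p misses the threshold. The median log2 fold change of the 9 genes was 0.20, beside 0.00 for all tested genes, and their range was -0.15 to 2.81. Fewer cells that express a gene and less RNA per cell cannot be told apart in such bulk libraries.

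**Figure D1:**
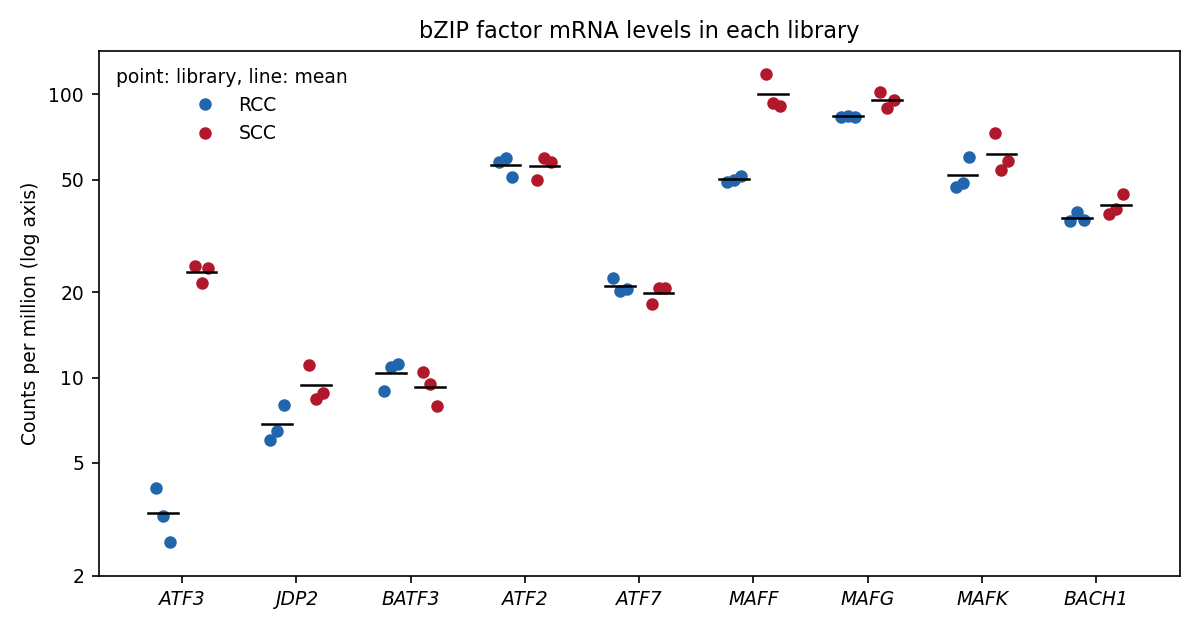
Level of each of the 9 genes in CPM, on a log axis, with 1 point per library and a line at the group mean (red SCC, blue RCC). ATF3 and MAFF are the genes whose groups lie farthest apart, and the groups of ATF2, ATF7, BATF3, MAFK and BACH1 overlap.

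ATF3 (ENSG00000162772, GRCh38 chromosome 1, 212565334 to 212620777, plus strand) is a stress-inducible member of the family that acts mostly as a repressor when it binds as a homodimer. It was at 24.8, 21.6 and 24.3 CPM in SCC replicates 1 to 3, and at 4.09, 3.25 and 2.63 CPM in the RCC replicates. The lowest SCC library was 5.29 times as high as the highest RCC library. Its log2 fold change of 2.81 (standard error 0.15) is a 7.02-fold difference with a 95% interval of 5.57 to 8.85 (adjusted p 2.3e-06). Of the 15881 tested genes, 11 had a higher log2 fold change. ATF3 stayed called in all 18 alternative fits, with an adjusted p of at most 0.0042. Its log2 fold change was 2.67 to 2.98 without any single library and 2.80 with the GC correction. No other annotated gene overlaps ATF3 in GENCODE release 29.

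The genes whose profile over the 6 libraries lay nearest to that of ATF3, by Euclidean distance of centred log2 CPM, were FOS, AL645608.7 and AC104046.1. FOS, the AP-1 subunit, was at a distance of 0.57 and had a log2 fold change of 3.12. The other 2 are a long noncoding RNA and a pseudogene, and the pseudogene was under 1.1 CPM in every library. With 2 groups of 3 libraries this measure mostly compares the size of the group difference.

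JDP2 (ENSG00000140044, chromosome 14, 75427716 to 75474111, plus strand) is the closest relative of ATF3 and a repressor of AP-1. It was at 11.1, 8.44 and 8.82 CPM in SCC and at 6.00, 6.50 and 7.999 CPM in RCC. The groups did not overlap, but SCC replicate 2 and RCC replicate 3 were 0.437 CPM apart. Of all tested genes, 14.4% had groups that did not overlap in this direction. Its log2 fold change of 0.48 had a 95% interval of 0.13 to 0.83 and did not pass the threshold (adjusted p 0.147). It was called in 0 of 18 alternative fits, in which the adjusted p ranged from 0.058 to 0.603. Per length, ATF3 was at 0.78 ± 0.27 times the FPKM of JDP2 in RCC and at 3.89 ± 0.40 times in SCC (SD, n = 3). The 3 RCC ratios ranged from 0.51 to 1.05 and the 3 SCC ratios from 3.46 to 4.25, so the ranges of this ratio did not overlap.

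BATF3 (ENSG00000123685, chromosome 1, 212686418 to 212699985, minus strand), best known from dendritic cells, pairs with JUN proteins. Its levels were 10.4, 9.51 and 7.97 CPM in SCC and 8.998, 10.9 and 11.2 CPM in RCC, and the groups overlapped. BATF3 had a log2 fold change of -0.15 with a 95% interval of -0.46 to 0.16 (adjusted p 0.570). BATF3 is the next tested gene after ATF3 on chromosome 1, with 65.6 kb between the 2 gene bodies, and none of the 4 genes annotated between them passed the filter. In RCC, BATF3 was 4.87 ± 1.53 times as high as ATF3 in FPKM, and in SCC 0.59 ± 0.09 times (SD, n = 3). JDP2 likewise lies near a gene that rose: FOS ends 145 kb before JDP2, and BATF, a relative of BATF3 that starts 48.3 kb beyond JDP2, was at 0 in 5 of the 6 libraries and at 0.130 CPM in RCC replicate 1.

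ATF2 (ENSG00000115966, chromosome 2, 175072250 to 175168382, minus strand) and ATF7 (ENSG00000170653, chromosome 12, 53507856 to 53626410, minus strand) are close relatives that stress-activated kinases switch on by phosphorylation. ATF2 was at 49.9, 59.3 and 57.6 CPM in SCC and at 57.6, 59.8 and 51.2 CPM in RCC. ATF7 was at 18.1, 20.7 and 20.7 CPM in SCC and at 22.5, 20.3 and 20.6 CPM in RCC. For both genes the groups overlapped, and SCC replicate 1 was the lowest of the 6 libraries. ATF2 had a log2 fold change of -0.018 with a 95% interval of -0.22 to 0.18 (adjusted p 0.929), and ATF7 one of -0.091 with an interval of -0.31 to 0.13 (adjusted p 0.623). The upper limits of these intervals are 1.14-fold for ATF2 and 1.09-fold for ATF7, in this fit only. On the log2 scale the upper limit for ATF2 was 0.21 with the GC correction. For ATF7 it was 0.17 without SCC replicate 1. The sign for ATF2 changed with the GC correction (0.082) and without SCC replicate 1 (0.055) or RCC replicate 2 (0.025). Antisense and read-through genes cover parts of the ATF7 exons, 25.6% for AC023509.2 and 18.2% for AC023509.3. Those genes had 12 and 130 counts over all 6 libraries. The strand setting of the counting was not given, and the effect of these overlaps on ATF7 was not tested.

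MAFF (ENSG00000185022, chromosome 22, 38200767 to 38216511, plus strand) was the small MAF gene that rose. It was at 118, 92.8 and 90.9 CPM in SCC and at 49.1, 49.6 and 51.4 CPM in RCC. The lowest SCC library was 1.77 times as high as the highest RCC library, and SCC replicate 1 was the highest of all. MAFF had a log2 fold change of 1.01 (standard error 0.10), a 2.01-fold difference with a 95% interval of 1.72 to 2.34 (adjusted p 3.6e-04). MAFF has a GC content of 60.2%, and its log2 fold change was 0.83 with the GC correction and 0.88 without SCC replicate 1, called in both. It lost the threshold in 1 of 18 alternatives, limma on log2(FPKM + 1) without a filter (adjusted p 0.053). Its profile over the libraries was most like those of RHOB, DUSP1 and ITGB4, at distances of 0.10, 0.10 and 0.15, whose log2 fold changes were 0.94, 0.97 and 0.98.

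MAFG (ENSG00000197063, chromosome 17, 81918270 to 81927714, minus strand) was at 102, 89.7 and 95.2 CPM in SCC and at 83.4, 84.1 and 83.3 CPM in RCC. The groups did not overlap, as for 14.4% of all tested genes in this direction, and the 3 RCC libraries spanned 0.815 CPM. MAFG had a log2 fold change of 0.20 with a 95% interval of 0.038 to 0.35 which did not pass the threshold (adjusted p 0.178). With the GC correction it was 0.063 (adjusted p 0.536), and MAFG was called in 0 of 18 alternatives.

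MAFK (ENSG00000198517, chromosome 7, 1530714 to 1543043, plus strand) was at 72.7, 54.0 and 58.2 CPM in SCC and at 47.1, 48.7 and 60.0 CPM in RCC. RCC replicate 3 lay above 2 of the 3 SCC libraries, so the groups overlapped. The log2 fold change of 0.25 (95% interval -0.021 to 0.52, adjusted p 0.282) became 0.12 without SCC replicate 1 and -0.013 with the GC correction. MAFK has the highest GC content of the 9 genes, 64.5%, and TMEM184A on the opposite strand covers 18.1% of its exon bases. TMEM184A had 1700 counts over all 6 libraries, beside 7418 for MAFK. The strand setting of the counting was not given, and the effect of this overlap on MAFK was not tested.

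**Figure D2:**
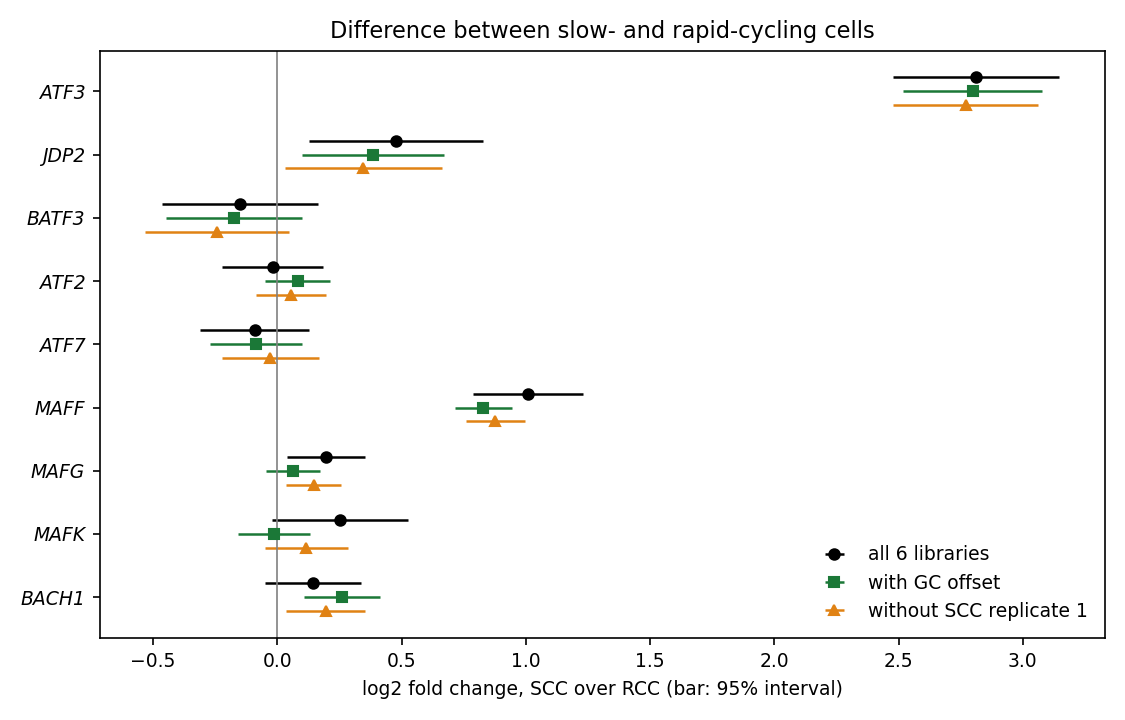
Log2 fold change of SCC over RCC for each of the 9 genes, with 95% intervals, from all 6 libraries (circles), with the GC correction (squares) and without SCC replicate 1 (triangles). The intervals of ATF3 and MAFF lie farthest above 0 in all 3 fits, and MAFK moves from 0.25 to -0.013 with the GC correction.

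The make-up of the small MAF messages can be compared per length, in the deposited FPKM values (counts per kilobase of gene, scaled for library size). The 3 genes summed to 56.0, 45.6 and 47.4 FPKM in SCC and to 35.0, 36.0 and 38.4 FPKM in RCC, and the groups did not overlap. MAFF made up 35.7% ± 1.43 of that sum in SCC and 24.4% ± 0.56 in RCC (SD, n = 3). MAFG made up 36.8% ± 2.09 in SCC and 43.9% ± 2.16 in RCC, and MAFK 27.5% ± 1.14 and 31.8% ± 2.72. In RCC MAFG was thus the most abundant small MAF message and MAFF the least, while in SCC the FPKM ranges of MAFF and MAFG overlapped. With the GC correction the counts of MAFG and MAFK gave log2 fold changes of 0.063 and -0.013. These shares were not tested, because the genes had been chosen with results known.

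BACH1 (ENSG00000156273, chromosome 21, 29194071 to 29630751, plus strand) encodes a haem-regulated repressor that binds antioxidant response elements with a small MAF partner. It was at 37.8, 39.3 and 44.5 CPM in SCC and at 35.8, 38.3 and 36.0 CPM in RCC. The groups overlapped, because RCC replicate 2 lay above SCC replicate 1. BACH1 had a log2 fold change of 0.14 with a 95% interval of -0.048 to 0.34, which did not pass the threshold (adjusted p 0.372). BACH1 has the lowest GC content of the 9, 40.2%. With the GC correction its log2 fold change was 0.26 and passed the threshold (adjusted p 0.048), in a fit that called 3.45% of all genes higher. The correction together with the replicate number as a block gave 0.26 (adjusted p 0.034) and called 4.41% of all genes higher.

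NFE2L1, NFE2L2 and NFE2L3, which compete with BACH1 for small MAF partners, were more abundant than BACH1 per length. NFE2, another CNC factor, was not: its mean was 0.078 FPKM in SCC and 0.038 in RCC, and it did not pass the filter. NFE2L1 was at 63.2 ± 3.55 FPKM in SCC and 57.1 ± 0.94 in RCC, NFE2L3 at 17.7 ± 0.15 and 17.9 ± 0.77, and NFE2L2 at 12.2 ± 0.68 and 12.8 ± 0.63, beside 5.22 ± 0.48 and 4.74 ± 0.21 for BACH1 (SD, n = 3). None of these 4 genes passed the threshold. BACH1 was 5.32% ± 0.54 of their sum in SCC and 5.12% ± 0.14 in RCC. The summed small MAF level was 0.50 ± 0.04 times the summed level of these 4 partners in SCC and 0.39 ± 0.03 times in RCC. The 3 SCC ratios lay between 0.48 and 0.55 and the 3 RCC ratios between 0.38 and 0.42, with no test. Without SCC replicate 1 the SCC ratios were both 0.48 and the SCC sums 45.6 and 47.4 FPKM.

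**Figure D3:**
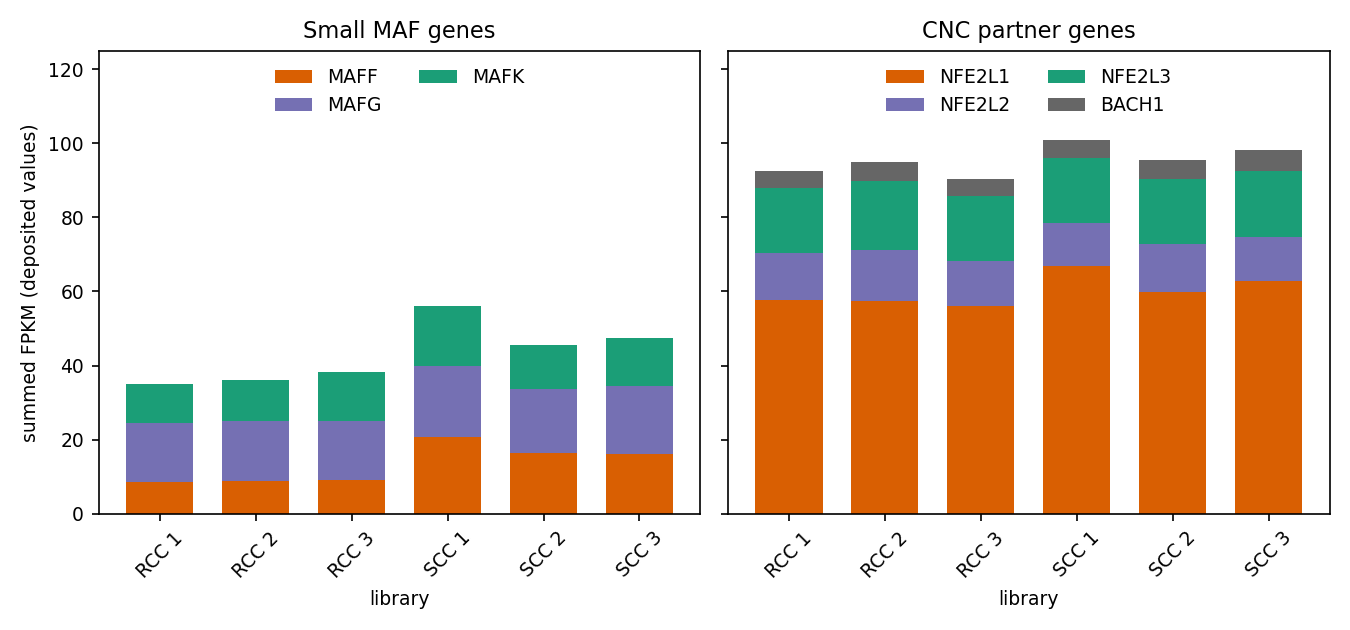
Deposited FPKM values summed over the 3 small MAF genes (left) and over NFE2L1, NFE2L2, NFE2L3 and BACH1 (right), 1 stacked bar per library. The MAFF segment is 8.67 to 9.11 FPKM in the RCC libraries and 16.1 to 20.6 in the SCC libraries, and BACH1 is the smallest segment of the right panel.

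Across the 9 genes the order of levels per length changed mainly through ATF3 and MAFF. In RCC the mean FPKM fell in the order MAFG (16.0), MAFK (11.6), ATF2 (9.74), MAFF (8.88), BACH1 (4.74), BATF3 (3.81), ATF7 (2.64), JDP2 (1.09) and ATF3 (0.819). Among neighbours in that order, the libraries of ATF2 and MAFF overlapped, as did those of JDP2 and ATF3. In SCC the order was MAFG (18.2), MAFF (17.7), MAFK (13.7), ATF2 (9.60), ATF3 (5.79), BACH1 (5.22), BATF3 (3.40), ATF7 (2.47) and JDP2 (1.501). There the neighbours MAFG and MAFF overlapped, and so did ATF3 and BACH1. ATF3 thus moved from the lowest of the 9 in RCC to the range of BACH1 in SCC.

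Partners, relatives and targets of these factors, and kinases of the stress pathways, were described from fixed lists. Of the 7 JUN and FOS genes, 5 were higher and 0 lower: FOSB, FOS, JUNB, JUND and JUN had log2 fold changes of 4.95, 3.12, 1.80, 1.36 and 0.80. The median of that list was 1.36. Over all tested genes, 1.69% were called higher and 0.378% lower. ATF3 ranked below FOSB and FOS and above JUNB in this respect, and MAFF between JUND and JUN. With the GC correction JUND stood at 0.93 and JUNB at 1.52, and leaving out SCC replicate 1 gave 0.97 and 1.63. JUND was not called without RCC replicate 1, 2 or 3 (adjusted p 0.089, 0.064 and 0.070). Nor was it called in the 3 limma fits on FPKM, which called 4, 4 and 3 of the list higher. Over all genes those 3 fits called 130, 117 and 48 higher. FOSL2 joined the calls, as a lower gene, when SCC replicate 1 was left out. Its log2 fold change was then -0.23, with an edgeR adjusted p of 0.0028. That fit called 343 of all genes lower, beside 60 in the main fit.

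Among 20 other ATF, CREB, BATF and C/EBP genes, 19 were tested, and the median log2 fold change was 0.084. Of these, 2 were called higher and 0 lower, against 1.69% and 0.378% of all tested genes. The 2 were CREB3L1, an endoplasmic reticulum-bound factor, with a log2 fold change of 0.78 (adjusted p 0.0455), and ATF4, the effector of the integrated stress response, with 0.27 (adjusted p 0.0459). DESeq2, which called 2.93% of all genes higher, called 5 of the list higher, CREB3L1, ATF4, ATF5, CEBPB and NFIL3. Neither CREB3L1 nor ATF4 was called by edgeR without RCC replicate 1, 2 or 3, nor was ATF4 without SCC replicate 3. Over the 18 alternatives ATF4 was called in 7 and CREB3L1 in 12, and the number of the list called higher ran from 0 to 6. It was 6 without SCC replicate 1, where 1 gene, CREB1, was also called lower. It was 4 without SCC replicate 2, 1 without SCC replicate 3 and 0 without each RCC library. The calls over all genes moved with the same fits. Beside 268 higher in the main fit, they were 642 higher and 343 lower without SCC replicate 1. Without SCC replicates 2 and 3, 585 and 179 of all genes were higher, and 99 to 103 without each RCC library. The log2 fold change of CREB3L1 was 0.61 with the GC correction and 0.52 without SCC replicate 1. Of the remaining 39 genes marked as bZIP in the deposited tables, 33 were tested, and their median was 0.15. The main test called 7 of them higher and 0 lower, against 1.69% and 0.378% of all tested genes. These 7 are the 5 JUN and FOS genes with ATF4 and CREB3L1.

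The CNC and large MAF list gave 0 calls in either direction among 7 tested of 10 genes, with a median of 0.070. NFE2L1 was the one gene at an unadjusted p under 0.05 (higher, adjusted p 0.237), beside 11.4% of all tested genes, and DESeq2 called 0. The 14 genes known to be repressed by BACH1 or driven from antioxidant response elements, such as HMOX1, NQO1 and GCLM, also gave 0 calls with a median of 0.14. At an unadjusted p under 0.05, 6 of the 14 were higher and 1, SLC7A11, lower, against 11.4% and 8.27% of all tested genes. DESeq2 called 1 of the 14 higher and 0 lower, against 2.93% and 0.997% of all genes. The count of 0 from edgeR became 3 without SCC replicate 2, with no filter on low counts, and with the replicate block and GC correction together. Over all genes the main fit called 268 higher, and these fits called 585, 995 and 701. The count for the 14 genes became 1 without SCC replicate 1, with the GC correction alone and with the block alone. Those fits called 642, 548 and 350 of all genes higher. HMOX1, the haem oxygenase gene best known as a BACH1 target, was at 13.5, 11.5 and 11.1 CPM in SCC and at 9.26, 8.94 and 9.68 CPM in RCC. Its groups did not overlap, as for 14.4% of all tested genes in this direction. The log2 fold change of HMOX1, 0.38, did not pass the threshold (adjusted p 0.137). It was chosen for mention after its values were seen.

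Of 13 kinases of the JNK and p38 pathways, which lead to ATF2 and ATF7, 12 were tested and 0 were called. Among them, MAPKAPK2 is a substrate of p38 rather than a kinase upstream of ATF2. At an unadjusted p under 0.05, 1 of the 12 was higher, MAPKAPK2, and 1 lower, MAPK8 (JNK1) (edgeR adjusted p 0.0890 and 0.177). Over all tested genes 11.4% were higher and 8.27% lower at that level. The median of the list was 0.086, and DESeq2 called 0. MAPKAPK2 was called higher by edgeR without SCC replicate 1 and with no filter on low counts. Those fits called 642 and 995 of all genes higher, beside 268 in the main fit. Messenger RNA levels say nothing of the phosphorylation of these kinases or of ATF2.

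**Figure D4:**
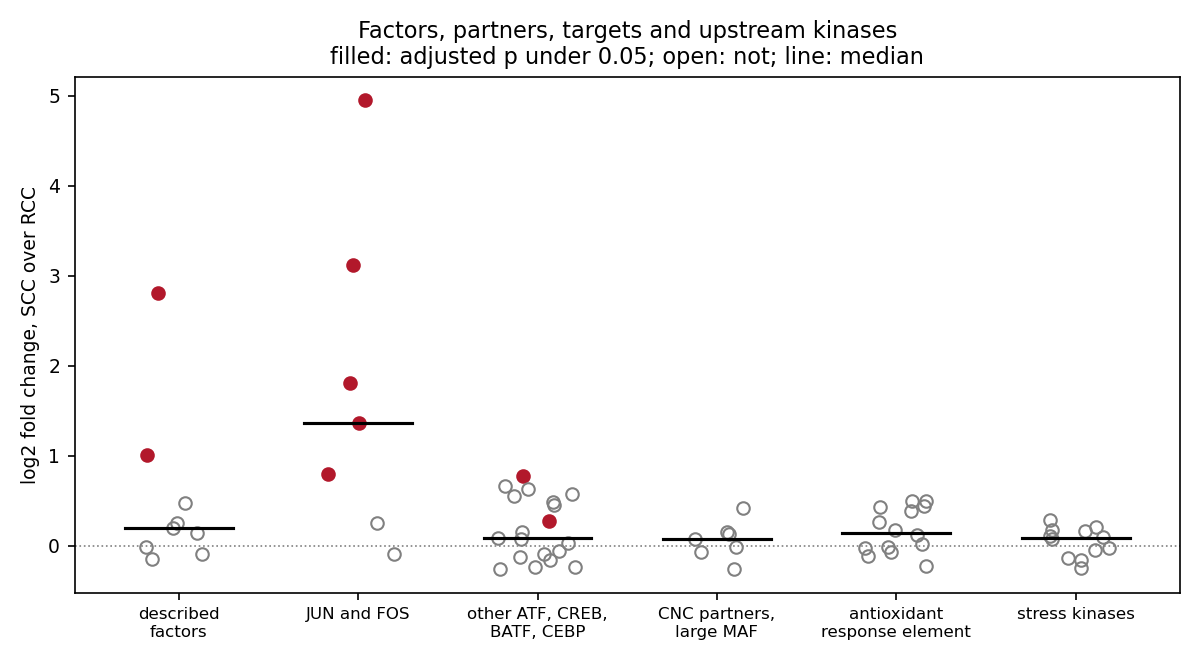
Log2 fold change of SCC over RCC for every tested gene of the 9 described factors and of the 5 fixed lists, with the median of each as a line. Filled points passed an adjusted p of 0.05 in edgeR's quasi-likelihood test: ATF3 and MAFF, 5 JUN and FOS genes, and ATF4 and CREB3L1.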

How the data were processed

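Per the submitters' processing notes, HISAT2 2.0.5 and featureCounts 1.5.0-p3 were used. The genome build, strand setting and filters were not given in the sources used here. The authors deposited whole-number counts and FPKM values per gene. Each deposited FPKM equalled count over gene length and 1 constant per library, 0.983 to 1.02 times the summed count. All 58735 rows had the ID, start and end of GENCODE release 29 on GRCh38, and 27 names turned into dates were restored by ID.

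Counts were filtered (filterByExpr, minimum count 10), TMM-scaled and tested on group alone with edgeR 4.0.16 (R 4.3.3), two-sided, with Benjamini-Hochberg adjustment over all tested genes. CPM values use TMM-scaled totals. Standard errors are the fold change over the square root of F. Scripts were tested on simulated data. Alternatives used DESeq2 1.42.0, limma 3.58.1 with trend on log2(FPKM + 1) or log2(FPKM + 0.1), other scalings and filters, thinning, a lowess GC offset (span 0.3), a block for the replicate number, and fits without each library in turn. The last kept at least 2 per group. GC content was computed over a gene's GENCODE transcripts.

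All 9 genes were described whatever their result, every called gene of the fixed lists was named, and so were the 3 genes nearest in profile to each called member. Members and lists were chosen with earlier results of these data known. Gene neighbours, the tables' bZIP column and the promoter motifs were looked at after the data had been seen. P-values set the group difference against the spread between replicate libraries, which edgeR estimates for each gene with information shared across genes. All libraries come from a single cell line, and they carry no molecular identifiers. The result of 1 gene of the fixed lists is not reported here.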

Additional observations from a re-analysis of the deposited data

How the results depend on the processing

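ATF3 kept its call in all 18 alternative fits and MAFF in 17. The count of the 9 genes called higher was 2, except that it was 1 with limma on log2(FPKM + 1) without a filter, where MAFF missed the threshold, and 3 with the GC offset, alone or with the block, where BACH1 passed it. The count called lower was 0 in every fit. ATF2 changed sign with the GC offset (0.082), the replicate block with the GC offset (0.084), and without SCC replicate 1 (0.055) or RCC replicate 2 (0.025); without any single library its log2 fold change ranged from -0.088 to 0.055. MAFK changed sign with the GC offset (-0.013) and the replicate block with the GC offset (-0.0090).

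Over all genes, 268 were higher and 60 lower. Without a filter there were 995 and 315, with log2(FPKM + 1) 130 and 36, with log2(FPKM + 0.1) 117 and 34, and with log2(FPKM + 1) unfiltered 48 and 1. DESeq2 gave 135 lower. The GC offset gave 548 and 297, and with the replicate block 701 and 547. Leaving out RCC replicate 1 gave the fewest calls, 99 higher and 8 lower, and leaving out SCC replicate 1 the most, 642 and 343. Fewer libraries entered these last fits than the main one, equally many in each, and the cause of the differences was not tested. Same-numbered libraries did not deviate together (correlations -0.0091, 0.025 and -0.079), so the numbers were not taken as pairs. The block alone gave 350 higher and 106 lower and changed no call among the 9 genes. With 1 library of a group left out in turn, the mean MAFF share of the small MAF sum was 35.1% to 36.5% in SCC. In RCC it was 24.2% to 24.7%. The mean ratio of ATF3 to JDP2 was then 3.708 to 4.102 in SCC and 0.639 to 0.911 in RCC. A mean of 3 values cannot move by 1 SD when 1 is left out, so the size of these moves is no test of stability.

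Depth limits the lowest genes: ATF3 in RCC, and JDP2 and BATF3 in both groups, rest on 47 to 298 counts per library.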
